A study of Mus musculus with 4 samples.

Results

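The genes described here are the tumour necrosis factor (TNF) and TNF receptor superfamilies in alveolar macrophages, the phagocytes that live in the airspaces of the lung. They were chosen by symbol, as every gene of the RefSeq table whose symbol begins with Tnfrsf or Tnfsf, with 1 exception that is not analysed here, together with Cd40, Cd40lg, Cd27, Cd70, Fas, Fasl, Lta, Ltb, Ltbr and Ngfr. The rule gave 42 genes, of which 24 encode receptors, 17 encode ligands and 1 is an antisense RNA. A named probe was present on the array for 40 of them, and 33 were measured, against 15124 measured of 19751 genes with a probe in the whole series. Tnfsf13 and the antisense RNA Tnfsf13os had no named probe. A gene counted as measured where its probe was well above background, a flag set by the scanner software, on both arrays of at least 1 genotype.

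Gene expression was measured by 1-colour hybridisation to Agilent mouse arrays in alveolar macrophages of wild-type mice (WT) and of mice lacking the transcription repressor Bach2 (Bach2KO, also written Bach2-/- in the labels). The WT pool came from 8 mice. The Bach2KO pool came from 4 mice by the treatment protocol and from 3 by the series design text. Both pools were sorted by flow cytometry, and no agent is named for either group. The gate, strain, age and the part of Bach2 that was deleted are not given in the sources used here. Each genotype gave 1 RNA sample, whose 2 portions were amplified, labelled and hybridised apart, so that 4 arrays of 1 slide carry 2 RNA samples. The spread between arrays is therefore technical, no biological replicate backs any difference below, and p-values are left out. Array position on the slide and genotype cannot be told apart.

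Values are the log2 of the processed signal relative to each array's 75th percentile, which lay between 979 and 1513 signal units. The level of one probe cannot be set against that of another probe, so only the arrays are compared. A gene was called higher or lower in Bach2KO where every one of the 4 possible pairings of arrays across the genotypes showed a 2-fold or larger difference that way. This rule concerns size only, and for any gene it calls the arrays of the genotypes cannot overlap. The share of all genes without overlap was not counted. For a gene that was not well above background on 1 or both arrays of a genotype, the difference from the detection floor also had to reach 2-fold. Of all measured genes, 8.36% were called higher and 5.90% lower. The array difference within WT had a median of 0.14 and a maximum of 0.87 (log2) over the superfamily genes, and within Bach2KO a median of 0.096 and a maximum of 0.35. Scaling to the spike-in probes in place of the 75th percentile lowered every difference by 0.72 and moved the median over all genes from 0.063 to -0.66, so each direction below is relative to the bulk of the genes.

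The cell type was checked against its markers. All 12 alveolar macrophage markers were measured, with 1 called higher (8.33%), 4 lower (33.3%) and 7 neither, against 8.36% and 5.90% of all measured genes. The largest called differences were those of Krt79 (16.8-fold lower), Siglecf (12.6-fold lower) and Il18 (10.6-fold lower). Differences were above 0 for 6 markers and below 0 for 6. Their summed signal, in multiples of the 75th percentile, was between 916 and 1025 in WT and between 885 and 893 in Bach2KO. Such a sum is carried mostly by the brightest probes and does not show these single differences. The lectin gene Siglecf, used to identify these cells, was well above background on all 4 arrays, at 5.38 and 5.25 in WT and 1.72 and 1.61 in Bach2KO. The Bach2 probe gave no check of the genotype labels, being well above background on 2 of the 4 arrays. In bulk RNA, fewer cells of a type and less RNA per cell cannot be told apart.

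Ligands of the TNF superfamily are mostly trimeric type II membrane proteins, some of which are shed, and their receptors carry cysteine-rich extracellular domains. Receptors with a cytoplasmic death domain recruit adaptors such as FADD and TRADD and can trigger cell death. Most others, decoy receptors aside, bind TRAF proteins and activate NF-kB and MAP kinases. In the lung, macrophages respond to TNF and to CD40 ligation, and they are a source of TNF and of BAFF, the survival factor of B cells. Bach2 is a basic leucine zipper repressor that pairs with small Maf proteins on Maf recognition elements, whose core overlaps the AP-1 site.

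Of the 33 measured superfamily genes, 9 were called higher in Bach2KO, 2 were called lower and 22 met neither condition. The share called higher was 27.3%, against 8.36% of all measured genes, and the share called lower was 6.06%, against 5.90%. The 4 ligand genes Tnfsf9, Tnfsf8, Tnfsf14 and Ltb and the 5 receptor genes Cd40, Tnfrsf26, Tnfrsf25, Tnfrsf10b and Tnfrsf23 were higher, and the ligand gene Tnfsf13b and the receptor gene Tnfrsf18 were lower. The median difference, Bach2KO minus WT, was 0.29 (log2) over the 33 genes and 0.063 over all measured genes, and with spike-in scaling the medians were -0.43 and -0.66. Tnfsf9, Tnfsf8, Cd40 and Tnfrsf25 were not well above background on both WT arrays and were measured through the Bach2KO arrays, where they are high. Among the 29 genes well above background on all 4 arrays, 5 were called higher (17.2%) and 2 lower (6.90%), against 6.87% and 5.49% of all such genes.

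The counts were also set against all genes under other choices. With spike-in scaling 4 superfamily genes were higher and 4 lower, where 4.15% of all genes were higher and 21.1% lower. With median centring 6 were higher and 2 lower (7.17% and 6.94% of all genes), and with quantile normalization 8 and 2 (7.82% and 6.26%). With normexp background correction 4 were higher and 2 lower (5.96% and 4.0%, or 605 lower genes of 15124), and with a 3-fold threshold also 4 and 2 (4.59% and 2.71%). Requiring only same-numbered array pairs, which can add calls but end none, gave 9 and 2 (8.58% and 6.06%). Without WT array 1 there were 9 and 2 (9.52% and 6.46%), and without WT array 2 there were 8 and 2 (8.70% and 6.78%). Without Bach2KO array 1 there were 9 and 3 (9.68% and 6.31%), and without Bach2KO array 2 there were 9 and 2 (8.79% and 6.41%). With spike-in scaling and with the 3-fold threshold the 4 higher genes were Tnfsf9, Tnfsf8, Cd40 and Tnfrsf26. Of these, Tnfsf9, Tnfsf8 and Cd40 were measured only through the Bach2KO arrays, where they are high. A filter requiring all 4 arrays above background was not combined with these choices.

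**Figure D1:**
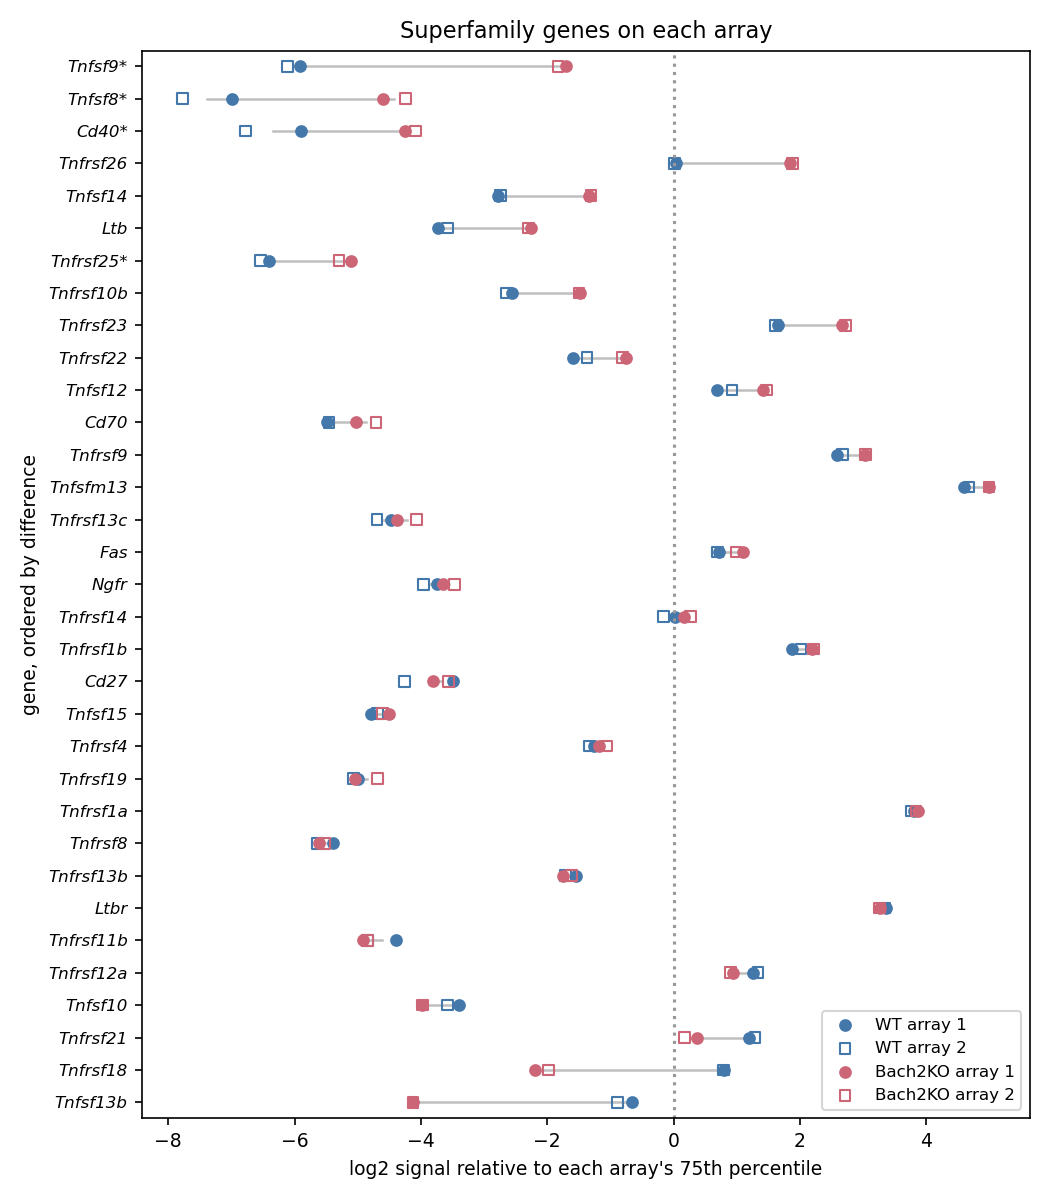
Log2 signal relative to each array's 75th percentile (horizontal axis) for the 33 measured superfamily genes, ordered by difference, with WT arrays in blue, Bach2KO arrays in red, circles for array 1 and squares for array 2. Grey lines join the genotype means, and asterisks mark the 4 genes that missed this flag on 1 or both WT arrays. The arrays of a genotype lie close together for most genes but not for Cd40, Tnfsf8 and Cd27, whose WT arrays differ by 0.87, 0.77 and 0.77, and the genotypes lie farthest apart at the top (Tnfsf9, 4.25) and the bottom (Tnfsf13b, -3.35) of the order.

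Among the ligands, the largest difference was that of Tnfsf9, which encodes 4-1BB ligand, a costimulator of T cells that is displayed by antigen-presenting cells. Its log2 signal was -5.91 and -6.12 in WT and -1.71 and -1.83 in Bach2KO. Both Bach2KO arrays lay far above both WT arrays, of which only array 2 was well above background. The difference was 4.25, with array pairs from 4.09 to 4.41, and the signal was 19.0-fold higher. With normexp background correction the difference was 2.46, and the gene drops out where every array must be above background. Tnfsf8, the gene of CD30 ligand, read -7.00 and -7.77 in WT and -4.59 and -4.25 in Bach2KO. Its groups did not overlap, but neither WT array was well above background, so the difference is known as a bound, at least 3.81-fold higher. For such a bound the dim arrays take the lowest signal of any probe that passed the background flag on that array, or their own signal where that is higher.

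Tnfsf14 encodes LIGHT, which binds both the herpesvirus entry mediator HVEM and the lymphotoxin beta receptor. It was well above background on every array, at -2.78 and -2.74 in WT and -1.33 and -1.31 in Bach2KO, a 2.72-fold higher signal. Ltb encodes lymphotoxin beta, which anchors lymphotoxin alpha at the cell surface and signals through the same receptor. Its values were -3.73 and -3.58 in WT and -2.25 and -2.30 in Bach2KO, 2.61-fold higher, and for both genes the 2 genotypes did not overlap. With spike-in scaling neither gene was called (differences of 0.72 for Tnfsf14 and 0.66 for Ltb).

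In the other direction, Tnfsf13b, the gene of the B cell survival factor BAFF, read -0.66 and -0.89 in WT and -4.12 and -4.13 in Bach2KO. All 4 arrays were well above background and the genotypes were clearly separate, with a difference of -3.35 and array pairs from -3.47 to -3.23. The signal was 10.2-fold lower in Bach2KO. The difference was -2.40 with normexp background correction and -4.07 with spike-in scaling. BAFF was the only measured ligand gene called lower. The remaining measured ligand genes, for TRAIL (Tnfsf10), TL1A (Tnfsf15), CD70 (Cd70), TWEAK (Tnfsf12) and the TWEAK-APRIL fusion transcript TWE-PRIL (Tnfsfm13), met neither condition, with differences from -0.49 for Tnfsf10 to 0.64 for Tnfsf12. With spike-in scaling Tnfsf10 was called lower (-1.21).

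A further 7 genes, 6 of ligands and 1 of a receptor, were not well above background on any array. These were the genes of CD40 ligand (Cd40lg), Fas ligand (Fasl), lymphotoxin alpha (Lta), RANKL (Tnfsf11), OX40 ligand (Tnfsf4) and GITR ligand (Tnfsf18), and Tnfrsf17, which encodes the plasma cell receptor BCMA. Their log2 signals lay between -8.53 and -6.64, so no difference between genotypes could be measured. Several of these ligands are products of activated lymphocytes.

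Of the 23 receptor genes measured, 17 met neither condition, 5 were called higher (21.7%) and 1 lower (4.35%), and the median difference was 0.25. Among the 10 ligand genes 5 met neither, 4 were higher (40%) and 1 lower (10%), and the median was 0.62. Of all measured genes 8.36% were called higher and 5.90% lower, and the median was 0.063. Tnfsf9 and Tnfsf8 among the ligand genes and Cd40 and Tnfrsf25 among the receptor genes were measured only through the Bach2KO arrays, where they are high. This can raise both shares called higher, which are not read as traits of ligands or receptors.

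The receptor gene called lower was Tnfrsf18, which encodes GITR, a receptor best known from regulatory T cells. Its signal was 0.80 and 0.79 in WT and -2.19 and -1.98 in Bach2KO. The genotypes did not overlap, and the signal was 7.36-fold lower in Bach2KO, with array pairs from -2.98 to -2.78. Its neighbour in the gene order, Tnfrsf4, which encodes the T cell costimulatory receptor OX40, differed by 0.17 and was not called.

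Cd40, the receptor through which T cells activate macrophages, dendritic cells and B cells, was the TRAF-binding receptor gene called higher. It read -5.90 and -6.78 in WT, where only array 1 was well above background, and -4.26 and -4.09 in Bach2KO. The 2 genotypes did not overlap, and the difference was 2.17, with array pairs from 1.65 to 2.69, a 4.50-fold higher signal, or 4.17-fold with the dim WT array set at the detection floor. With normexp background correction, the differences of Cd40 and Tnfsf8 became 0.96 and 0.90 and both calls were lost.

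Death domain receptors were called higher for 2 of 6 genes (33.3%) and lower for none, against 8.36% and 5.90% of all measured genes. Of these, Tnfrsf25 was measured only through the Bach2KO arrays, where it is high, so the share is not read as a trait of the class. Tnfrsf10b encodes DR5, the mouse TRAIL receptor that transmits a death signal, and read -2.55 and -2.64 in WT and -1.49 and -1.50 in Bach2KO, a 2.15-fold higher signal without overlap. Its call was lost with median centring (0.97), normexp background correction (0.96) and spike-in scaling (0.38). Tnfrsf25, the gene of the TL1A receptor DR3, read -6.40 and -6.54 in WT, not well above background on either array, and -5.10 and -5.30 in Bach2KO, at least 2.20-fold higher. The call of Tnfrsf25 was lost without WT array 2 (difference 1.196), with median centring (1.13), quantile normalization (1.08), normexp background correction (0.60) and spike-in scaling (0.55), and where every array must be above background. Tnfrsf21, which encodes DR6, was just short of the rule in the other direction, at 1.19 and 1.29 in WT and 0.36 and 0.17 in Bach2KO, with array pairs from -1.12 to -0.82. Tnfrsf21 was called lower with spike-in scaling (-1.69) and without Bach2KO array 1 (-1.07). The TNF receptor 1 gene Tnfrsf1a was nearly equal on all arrays (3.80 and 3.77 in WT, 3.87 and 3.84 in Bach2KO), and the Fas gene was 0.72 and 0.70 in WT and 1.10 and 0.99 in Bach2KO.

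The mouse TRAIL decoy receptor genes Tnfrsf22 and Tnfrsf23 and the related Tnfrsf26 are neighbours in the gene order and were higher together in sign. Tnfrsf26 read 0.033 and 0.011 in WT and 1.84 and 1.88 in Bach2KO, 3.58-fold higher, with no overlap. Tnfrsf23 read 1.66 and 1.61 in WT and 2.66 and 2.72 in Bach2KO, 2.08-fold higher and just inside the rule, with the lowest array pair at 1.003. Its call was lost with median centring (0.92), normexp background correction (0.98) and the mean of its probes (0.99). Tnfrsf22 differed by 0.70 and met neither condition. Its second probe differed by 1.13 but also missed the rule, with the lowest array pair at 0.98. The 3 genes are similar in sequence, a probe may bind more than 1 of them, and their values are uncertain as separate measurements. With spike-in scaling Tnfrsf26 remained called (1.12), whereas Tnfrsf23 (0.34) was not and Tnfrsf22 turned slightly negative (-0.017).

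The remaining TRAF-binding and B cell receptors met neither condition. The genes with a mean signal at or above the 75th percentile in this group were those of the lymphotoxin beta receptor (Ltbr, -0.091), Fn14, the receptor of TWEAK (Tnfrsf12a, -0.37), HVEM (Tnfrsf14, 0.28), TNF receptor 2 (Tnfrsf1b, 0.25) and 4-1BB (Tnfrsf9, 0.40), where each value is the log2 difference. Tnfrsf9 read 2.58 and 2.68 in WT and 3.02 and 3.04 in Bach2KO, so its genotypes did not overlap although the difference was small. The arrays of Cd27, at -3.49 and -4.26 in WT and -3.81 and -3.56 in Bach2KO, did overlap. Genes of the BAFF receptors TACI (Tnfrsf13b) and BAFF receptor (Tnfrsf13c) differed by -0.052 and 0.36, and the genes of the decoy receptor osteoprotegerin (Tnfrsf11b), CD30 (Tnfrsf8), TROY (Tnfrsf19) and the p75 neurotrophin receptor (Ngfr) by -0.27, -0.052, 0.17 and 0.29.

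**Figure D2:**
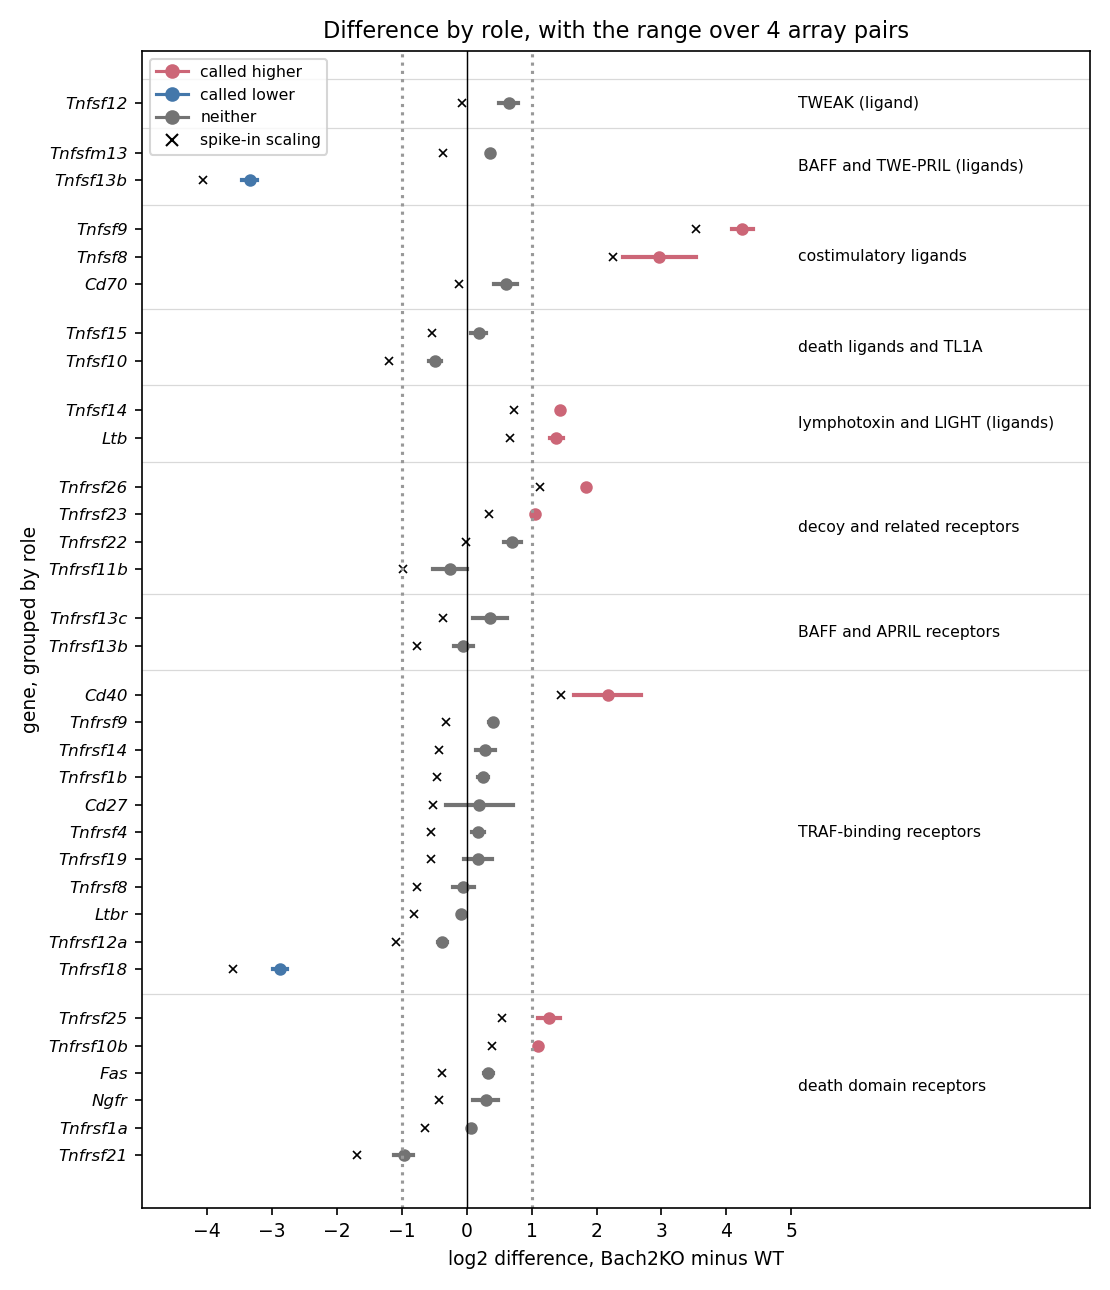
Log2 difference, Bach2KO minus WT (horizontal axis), for the measured genes grouped by role, with points for the difference of genotype means, bars for the range over the 4 array pairs, dotted lines at 2-fold and crosses for spike-in scaling. The measured differences of Tnfsf8 and Tnfrsf25 are drawn, which exceed their lower bounds (1.93 and 1.14). Spike-in scaling shifts every gene by the same -0.72, after which Tnfsf9, Tnfsf8, Cd40 and Tnfrsf26 still lie above 2-fold.

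Set beside each other, ligand and receptor genes of the same pair were not called together where both were measured. Of 21 pairs listed, 14 had both genes measured. Among these both were called in 0, only the ligand in 7, only the receptor in 3 and neither in 4. The called receptor genes Cd40 and Tnfrsf18 could not enter this count, as Cd40lg and Tnfsf18 were not well above background. Tnfrsf26 was in no listed pair. Genes recur across pairs, so the pairs are not independent, and Tnfsf14 and Tnfsf13b each enter the 7 more than once. Of all measured genes 8.36% were called higher and 5.90% lower. No such count was made for pairs of other genes, and with so few pairs a count of 0 is a description only. Tnfsf9 differed by 4.25 and its receptor gene Tnfrsf9 by 0.40, and Tnfsf8 was higher while its receptor gene Tnfrsf8 differed by -0.052. For BAFF, Tnfsf13b differed by -3.35 and its receptor genes Tnfrsf13b and Tnfrsf13c by -0.052 and 0.36. For TRAIL, the receptor genes Tnfrsf10b and Tnfrsf23 were called higher, whereas Tnfsf10 differed by -0.49.

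**Figure D3:**
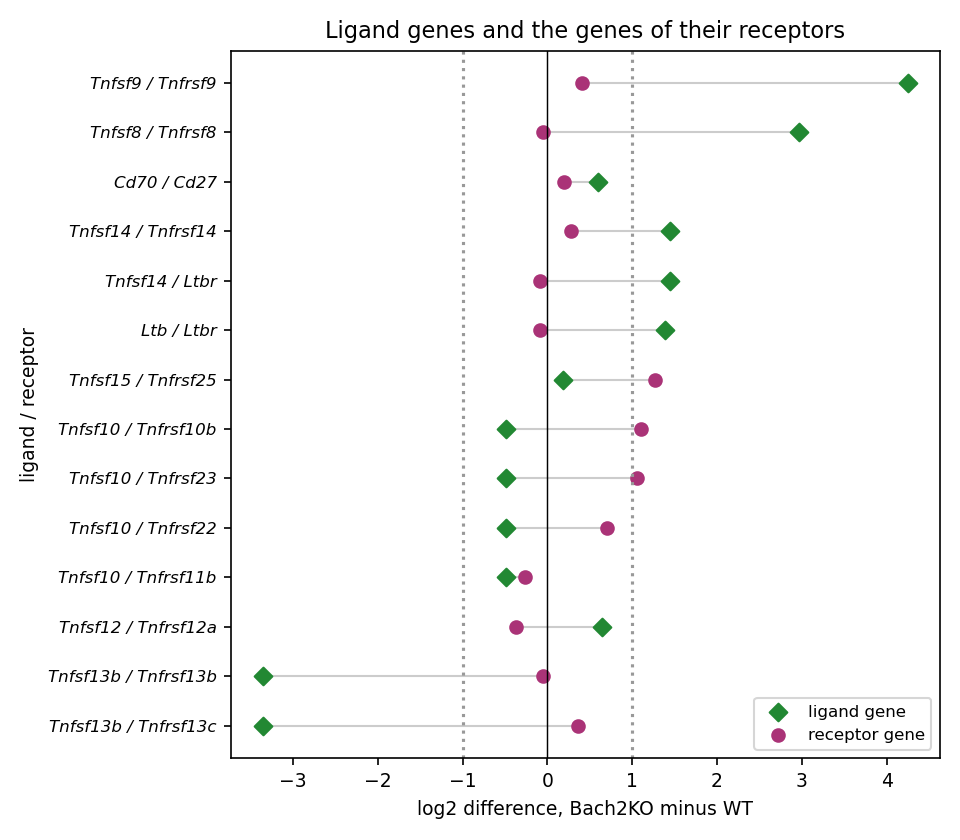
Log2 difference, Bach2KO minus WT (horizontal axis), of the ligand gene (green diamonds) and the receptor gene (purple circles) in the 14 ligand and receptor pairs with both genes measured, with dotted lines at 2-fold. In each pair at most 1 of the 2 symbols lies outside the dotted lines, and for Tnfsf9, Tnfsf8 and Tnfsf13b it is the ligand.

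Many superfamily genes lie in clusters. Clusters in the RefSeq gene order were allowed at most 1 other protein-coding gene between members, with Tnf counted among them. In this way 24 genes formed 9 clusters, of which 5 held a called gene and 2 held more than 1. No such count was made for clusters of other genes. In the cluster of Tnfsf9, Cd70 and Tnfsf14 the differences were 4.25, 0.60 and 1.44, so the gene between the 2 called genes was not itself called. In the cluster of Ltb, Tnf and Lta, Ltb differed by 1.38 and Tnf by 0.26, and Lta was not well above background. The cluster of Cd27, Ltbr and Tnfrsf1a held no called gene, with differences from -0.091 to 0.20, and that of Tnfsf4, Tnfsf18 and Fasl was not well above background on any array.

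Promoters of called genes are shown because Bach2 binds the Maf recognition element, whose core TGANTCA (N is any base) it shares with AP-1. RefSeq promoter sequences (GRCm38.p6) were found for 31 of the 42 genes, with 35 start sites among them, and the 250 bases before each start were searched on both strands. Of the 9 genes called higher, 4 had no entry in the table (Cd40, Tnfsf9, Tnfrsf26 and Tnfrsf10b). The sequences below are those of 2 ligand genes called higher, Tnfsf14 (chr17:57194182-57194431, minus strand) and Tnfsf8 (chr4:63861285-63861534, minus strand), and of the 2 genes called lower, Tnfsf13b (chr8:10006383-10006632, plus strand, 1 of its 2 start sites) and Tnfrsf18 (chr4:156026072-156026321, plus strand). They run 5′ to 3′, and capitals mark a match to TGANTCA.
Tnfsf14: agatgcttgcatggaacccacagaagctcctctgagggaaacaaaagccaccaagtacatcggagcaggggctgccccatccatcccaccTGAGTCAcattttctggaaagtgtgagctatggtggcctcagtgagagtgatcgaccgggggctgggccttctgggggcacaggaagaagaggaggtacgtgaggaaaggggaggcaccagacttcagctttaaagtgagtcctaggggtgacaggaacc
Tnfsf8: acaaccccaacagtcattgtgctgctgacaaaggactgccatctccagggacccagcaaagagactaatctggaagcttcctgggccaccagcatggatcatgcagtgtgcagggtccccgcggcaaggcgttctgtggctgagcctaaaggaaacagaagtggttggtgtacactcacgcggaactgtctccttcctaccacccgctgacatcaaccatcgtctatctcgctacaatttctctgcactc
Tnfsf13b: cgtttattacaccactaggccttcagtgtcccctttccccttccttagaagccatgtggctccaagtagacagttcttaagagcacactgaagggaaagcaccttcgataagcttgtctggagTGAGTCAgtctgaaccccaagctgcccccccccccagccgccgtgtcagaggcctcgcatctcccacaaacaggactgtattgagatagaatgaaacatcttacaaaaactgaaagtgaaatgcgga
Tnfrsf18: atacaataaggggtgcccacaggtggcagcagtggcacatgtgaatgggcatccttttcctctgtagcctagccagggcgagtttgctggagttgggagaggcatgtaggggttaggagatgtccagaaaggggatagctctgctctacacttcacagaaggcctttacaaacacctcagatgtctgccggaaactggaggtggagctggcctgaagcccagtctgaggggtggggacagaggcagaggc

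A match began 160 bases before the start of Tnfsf14, a gene called higher, and 127 bases before the second start of Tnfsf13b, a gene called lower, and in both it was TGAGTCA. The windows of Tnfsf8 and Tnfrsf18 held no match to these letters. Among all superfamily start sites 6 of 35 (17.1%) held the core, against 2217 of 32851 in the whole table (6.75%). Of the 6 start sites of genes called higher 1 held it, and of the 3 start sites of genes called lower also 1. The other 4 belonged to Fas, Tnfrsf8 and Tnfrsf9, which were not called, and to Tnfsf13, which had no named probe. TGANTCAGC, the core extended towards the Maf half-site and contained in the first motif, was found in 0 of the 35 windows and in 335 of 32851 overall (1.02%). A match is a description of the sequence, and no binding was measured.

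Downstream of the receptors, a list of 44 genes of TNF signalling was examined, made up of Tnf itself, the superfamily genes with other symbols, adaptors, kinases, caspases, inhibitors and the sheddases. Of 41 measured, 5 were called higher (12.2%), 2 lower (4.88%) and 34 neither, against 8.36% and 5.90% of all measured genes, and the median difference was 0.062, against 0.063 over all genes. Tnf read -0.52 and -0.44 in WT and -0.22 and -0.20 in Bach2KO, a difference of 0.26 without overlap that was not called.

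The genes called higher included both executors of necroptosis, a form of lytic cell death downstream of TNF receptor 1. The kinase gene Ripk3 read 0.28 and 0.19 in WT and 2.44 and 2.41 in Bach2KO, 4.56-fold higher, and its substrate gene Mlkl read -0.61 and -0.80 in WT and 0.97 and 1.08 in Bach2KO, 3.32-fold higher. Ripk1, the kinase upstream of Ripk3, differed by -0.29 and Casp8, the protease that restrains necroptosis, by 0.10. Bid, which links death receptors to mitochondria, was 2.53-fold higher, and the genes of the A20-binding proteins Tnip3 and Tnip1 were 6.43-fold and 2.17-fold higher. By the rule for calls, the genotypes could not overlap for any of the 5.

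Lower were Traf4, a TRAF family adaptor gene, at -1.04 and -1.15 in WT and -3.22 and -3.07 in Bach2KO (4.13-fold), and Map3k14, which encodes NIK, the kinase of the non-canonical NF-kB pathway used by CD40, BAFF and lymphotoxin beta receptors. Map3k14 read 0.29 and 0.32 in WT and -1.19 and -1.18 in Bach2KO, 2.81-fold lower. Among the other TRAF genes, Traf1 and Traf3 differed by 0.90 and 0.91, Traf6 by 0.47, Traf2 by -0.067 and Traf5 by -0.40, and none was called. With spike-in scaling 2 genes of the list, Ripk3 and Tnip3, were higher and 8 were lower, among them Tradd, Birc2, Ikbkb and Relt.

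**Figure D4:**
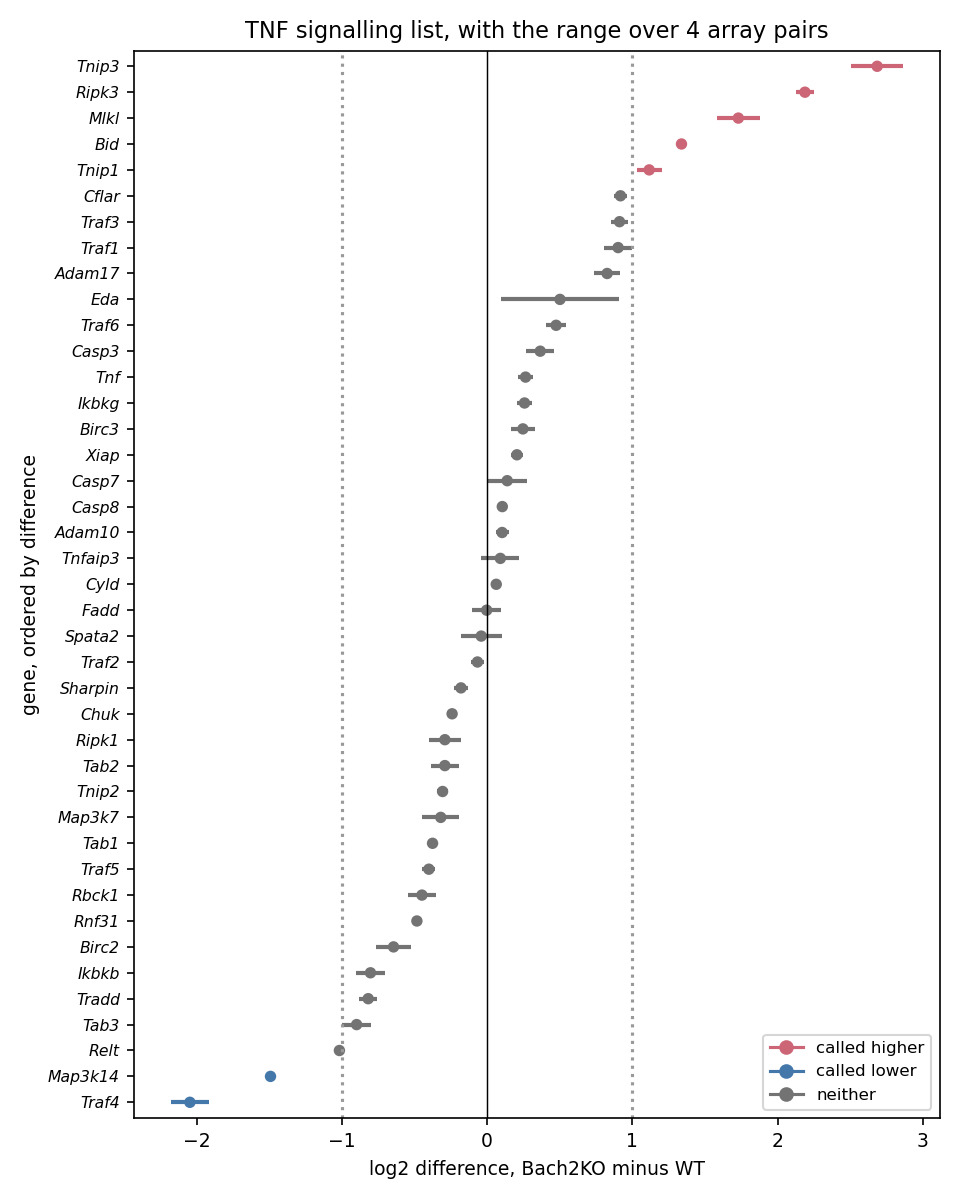
Log2 difference, Bach2KO minus WT (horizontal axis), for the 41 measured genes of the TNF signalling list, ordered by difference, with bars for the range over the 4 array pairs and dotted lines at 2-fold. The 5 genes called higher, from Tnip1 (1.12) to Tnip3 (2.69), and the 2 called lower, Map3k14 (-1.49) and Traf4 (-2.05), stand at the ends of a list whose other members lie between -1.02 and 0.92.

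Markers of other cell types that could carry superfamily transcripts differed as well. The shares of all measured genes beside them were 8.36% called higher and 5.90% lower. Of 13 measured T cell markers 5 were called higher and 1 lower, and in Bach2KO Cd3d and Cd3g, not well above background in WT, were at least 6.15-fold and 2.67-fold higher. The summed signal of the T cell list was between 62.2 and 62.6 in WT and between 24.95 and 25.2 in Bach2KO, and Cd247 and Trat1 were not well above background on any array. The sum and the single markers differed in direction, since Cd2 was 3.81-fold lower (5.76 and 5.77 in WT, 3.85 and 3.82 in Bach2KO), whereas the other 12 measured markers had differences above 0 and the median of the list was 0.94. Of 9 measured B and plasma cell markers 1 was higher, Cd79b (at least 2.62-fold), and 0 lower. Their summed signal was 0.59 to 0.68 in WT and 0.97 to 1.13 in Bach2KO, with Ebf1 and Jchain not well above background. Of 7 measured NK cell markers none was called (4.99 to 5.33 and 5.32 to 5.45), with Ncr1, Klrk1 and Klrd1 not well above background. The part of lymphocytes in the differences of Ltb, Tnfsf14, Tnfsf8 and Tnfrsf25 was not tested.

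For Cd40 and Tnfsf9, which dendritic cells also display, none of 4 measured dendritic cell markers was called, with differences from 0.016 to 0.42, a summed signal of 0.41 to 0.43 in WT and 0.490 to 0.492 in Bach2KO, and Cd209a and Xcr1 not well above background on any array. Of 8 measured markers of monocytes and interstitial macrophages 3 were higher, the complement genes C1qa (17.0-fold), C1qc (13.9-fold) and C1qb (7.90-fold), and 3 were lower, with a summed signal of 4.20 to 4.24 in WT and 5.51 to 5.64 in Bach2KO. Among 8 neutrophil markers 3 were higher, S100a9 (at least 32.4-fold), S100a8 (13.5-fold) and Retnlg (at least 5.90-fold), and 1 was lower, with a summed signal of 42.3 to 43.5 in WT and 51.0 to 51.1 in Bach2KO, and Ngp not well above background. Endothelial markers were higher for 1 of 4, Cdh5 (21.2-fold), with a summed signal of 6.003 to 6.41 in WT and 7.85 to 8.33 in Bach2KO. Tek, Tie1 and Emcn were not well above background. Epithelial markers were higher for 1 of 7, Scgb1a1 (3.05-fold), and lower for 1, Epcam. Epcam was at least 98.1-fold lower and not well above background in Bach2KO. The epithelial sum was 3.82 to 3.98 in WT and 4.72 to 4.86 in Bach2KO, and Krt8 was not well above background. The part of these cells in the superfamily differences was not tested.

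No call was backed by a second probe. Among the called genes only Tnfrsf23 had a second measured probe, which differed by 0.92 and missed the rule. Both probes of Tnfrsf1a, Tnfrsf13b and Tnfsfm13 met neither condition. With the mean of a gene's probes Tnfrsf23 was no longer called and Tnfrsf14 was. The dimmer probe of Tnfsf12 differed by 1.15, inside the rule, while the brighter probe that stands for the gene differed by 0.64. A second probe of Tnfrsf14, not well above background in WT, was at least 2.16-fold higher in Bach2KO, against a difference of 0.28 for the brighter probe. Tnfsfm13 is a read-through of Tnfsf12 and Tnfsf13, so its probes may bind those transcripts too.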

How the data were processed

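The 4 arrays were 1-colour (Cy3) hybridisations. The deposited scanner files give each spot's linear intensity. The software was Agilent Feature Extraction, version 9.1 in the submitters' processing notes but 10.7.3.1 per the file headers. Per the file headers the processed intensity had its background subtracted and was detrended within each array, with no step across arrays. The authors' deposited value table holds log2 values, which were the log2 processed signal of the same array minus a constant (column medians -3.58, -3.67, -3.53 and -3.45).

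Control spots and outlier spots (109 to 136 of 43020 per array) were left out, no spot was saturated, log2 values of repeated spots were averaged, and each array's 75th percentile over non-control spots was subtracted. A probe was well above background where no fewer than 50% of its spots were flagged so, which held for 27127 to 27918 of 39429 probes per array. Symbols came through unversioned accessions from a RefSeq table of GRCm38.p6 (26055 probes with 1 symbol, 0 with several, 13374 with none), and the array design was built on mm9. The brightest measured probe stood for its gene.

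Of the genes the choice by symbol covers, 1 is not reported here, nor is 1 gene of the marker lists, which was left out of their counts and sums. No test was run, as each genotype had 1 RNA sample. The members, lists and alternatives were chosen with earlier results of these data known. Genes named were all called members, the uncalled members with a mean at or above the 75th percentile, all called genes of the signalling list and up to 3 called genes per marker list. Other members, signalling genes and markers named beside them were chosen after their values were seen. The rule was tested on simulated data. Analyses used Python 3.11.15, pandas 2.3.3, R 4.3.3 and limma 3.58.1 (normexp background correction with offset 50, on median spot signals).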

Additional observations from a re-analysis of the deposited data

How the results depend on the processing

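Of the 15 alternative settings, a 1.5-fold threshold and the same-numbered pairs cannot end a call by construction, the mean of probes cannot do so for a gene with 1 measured probe, and leaving out an array cannot where the gene was well above background on every array, so these say nothing about stability. Under the other scalings, normexp background correction, the deposited value table and a 3-fold threshold, the calls of Tnfsf13b, Tnfrsf18, Tnfrsf26 and Tnfsf9 were kept. Spike-in scaling lowers every difference, so it could not end the lower calls of Tnfsf13b and Tnfrsf18. The deposited table is the same signal less a constant per array. It moved the median over all genes only from 0.063 to 0.098, and so is a weak check. Tnfsf14 and Ltb were lost with spike-in scaling and the 3-fold threshold, and Tnfsf8 and Cd40 with normexp. The 9 genes called higher became 6 with median centring, 4 with spike-in scaling, 4 with normexp background correction, 4 with a 3-fold threshold and 5 under a filter requiring the background flag on every array, which drops the dim genes; for the other changes the cause was not tested. The 2 genes called lower became 4 with spike-in scaling, under which 4.15% of all genes were called higher and 21.1% lower, so that 16.4% of all calls were higher in place of 58.6%. The median difference of 0.29 was 0.16 with median centring, 0.22 with quantile normalization, 0.33 with the mean of a gene's probes and -0.43 with spike-in scaling, and lay between 0.23 and 0.36 when each array was left out in turn, with 8 or 9 genes called higher and 2 or 3 lower. In the signalling list, the 5 higher and 2 lower genes became 4 and 3 with median centring and 2 and 8 with spike-in scaling. With quantile normalization they were again 5 and 2, with Cflar in place of Tnip1. These alternatives were added for this list after seeing the data. Requiring only the pairs of arrays with the same replicate number to pass (the replicate block) gave 9 higher and 2 lower genes, and as all pairs already had to pass, this could only add calls. The arrays of a genotype are parts of 1 RNA sample, so a shared number pairs no animals. No alternative turned the sign of a called gene, but for most settings the rule for calls fixed this outcome. Only quantile normalization, normexp background correction and, for Tnfrsf23, the mean of its probes could have turned a sign. Genes near the detection floor, such as Tnfsf8, Cd40 and Tnfrsf25, are limited by signal over background.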
